A study of Mus musculus with 461 samples.

Results

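Pou5f1 (ENSMUSG00000024406) encodes Oct4, the POU-family transcription factor at the centre of the pluripotency network. It is 1 gene of the 31673 in the deposited table, chosen by its symbol, and was followed in all 461 mouse cells of a reprogramming time course named 7F. Each cell was captured and amplified on the Fluidigm C1 system, and each is 1 sample of the series. The starting cells, taken as day 0, were OG2 transgenic mouse embryonic fibroblasts on a mixed 129SVJ, C57B6 and CBA background. OG2 mice carry a green fluorescent reporter under Oct4 regulatory sequence, and that reporter is shared by every group, day 0 included. Cells of days 1, 3, 4, 5 and 7 had been cultured in iCD1, a chemically defined medium. The titles split the days by a prefix, b1, b2 or b3, whose meaning the labels do not give. The 10 sets of cells that share a prefix and a day held 20 (b1) and 54 (b2) cells at day 0, 58 (b2) at day 1, 61 (b1) and 58 (b2) at day 3, 59 (b3) at day 4, 5 (b1) and 79 (b2) at day 5, and 2 (b1) and 65 (b2) at day 7.

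In the embryo Oct4 marks the inner cell mass, the epiblast and later the germ line, and it is silenced in somatic cells by nuclear receptors, histone methylation and DNA methylation at its locus. In pluripotent cells Oct4 and its partner Sox2 bind together at composite sites of genes such as Utf1, Fgf4 and Fbxo15. Pou5f1 is not in the published 7F cocktail, which consists of Jdp2, Kdm2b, Map2k6, Glis1, Nanog, Esrrb and Sall4. The labels do not name the factors, and the origin of Pou5f1 transcripts, from a vector or the native gene, was not tested. Whether transcripts of the reporter contributed to the Pou5f1 values was not tested.

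The promoter is shown because the nuclear receptors and DNA-modifying enzymes described further on act at this locus. RefSeq (GRCm38.p6) places the 250 bases before the main start of Pou5f1 at chr17:35505782-35506031 on the forward strand. Capitals mark the GC box GGGCGG, which Sp1-type factors bind, and the hexamer AGGTCA, which nuclear receptors bind. The same window of Amt is set beside it, as the single gene with that hexamer among the genes whose levels followed Pou5f1 most closely in all 4 late sets (named below), at chr9:108296655-108296904.
Pou5f1: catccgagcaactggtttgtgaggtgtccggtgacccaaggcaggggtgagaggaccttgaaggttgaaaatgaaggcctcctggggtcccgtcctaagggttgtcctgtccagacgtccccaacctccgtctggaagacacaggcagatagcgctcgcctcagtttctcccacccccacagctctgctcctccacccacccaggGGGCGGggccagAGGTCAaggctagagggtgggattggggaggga
Amt: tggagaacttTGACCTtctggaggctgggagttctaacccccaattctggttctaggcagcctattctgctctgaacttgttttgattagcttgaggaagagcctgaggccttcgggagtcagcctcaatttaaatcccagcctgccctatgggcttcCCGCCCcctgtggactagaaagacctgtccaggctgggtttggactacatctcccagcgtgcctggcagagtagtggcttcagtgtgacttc
In Pou5f1 the hexamer starts 33 bases and the GC box 45 bases before the transcription start, and each occurs 1 time on either strand. In Amt the hexamer (as TGACCT) starts 240 bases before the start and the GC box (as CCGCCC) 92 bases before it. Among 32851 RefSeq windows of this length, 14.02% held AGGTCA on either strand, 32.7% held GGGCGG and 1.601% held the octamer ATGCAAAT, the classical POU motif. Neither of the printed windows held the octamer. Of the 10 closest genes, 9 had a RefSeq window, of which 1 held the hexamer, 6 the GC box and 0 the octamer. None of these motifs lies within another.

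Pou5f1 was close to absent from the fibroblasts of day 0. At a detection limit of 1 TPM, a transcript abundance scaled for length and for the total of each cell, 1 of 20 b1 cells had it, with 2.68 TPM from 3 counts, and 1 of 54 b2 cells, with 1.31 TPM from 2 counts. The shares were 5.0% (exact Clopper-Pearson 95% interval 0.127 to 24.9%) and 1.85% (0.0469 to 9.89%). These fibroblasts, which should lack the gene, set the background level, at median depths of 2.87 M and 3.31 M counts per cell (M, mega). Genes of the published cocktail were already found in them, from Esrrb (mean 1174 TPM in b1 and 835 TPM in b2) to Glis1 (15.5 and 8.0 TPM). Day 0 may therefore not stand for untreated fibroblasts, which was not tested. Intervals of shares cover only the sampling of cells within a set, and those of count ratios, given below, only the counting of reads. Reads carry no molecular identifiers, so amplified copies count separately and the ratio intervals may be too narrow. Of 12 fibroblast markers, 12 and 11 had a mean of at least 1 TPM in the b1 and b2 sets of day 0. So did 5 of 9 epithelial markers in each set, so this limit alone does not tell the cell type. The summed fibroblast markers had a median of 2984 TPM (b1) and 1838 TPM (b2), the epithelial ones 9.37 and 5.195 TPM. The keratin Krt18 of the epithelial list was found in 11 of 20 b1 and 28 of 54 b2 cells. The endothelial marker Pecam1 was found in 20 of 20 b1 (mean 7.38 TPM) and 0 of 54 b2 cells. Other endothelial markers were rare in both sets. Kdr was in 3 b1 and 3 b2 cells, Esam in 1 and 2, and Cdh5, Tek and Emcn in 0 cells of each. Pecam1 also differed by prefix at day 3, in 61 of 61 b1 and 9 of 58 b2 cells.

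Pou5f1 then appeared in more cells and at a higher level. In the b2 sets it was present in 12 of 58 cells at day 1 (20.7%, 11.2 to 33.4%), 27 of 58 at day 3 (46.6%, 33.3 to 60.1%), 50 of 79 at day 5 (63.3%, 51.7 to 73.9%) and 51 of 65 at day 7 (78.5%, 66.5 to 87.7%). The intervals of successive b2 days overlapped, those of days 1 and 3 only at their ends, while those of days 1 and 5 did not overlap, nor did those of days 3 and 7. Each b2 day is 1 set, so intervals over its cells are a description and no test between days. At day 4, which was all of prefix b3, 24 of 59 cells had it (40.7%, 28.1 to 54.3%), a share whose interval overlapped those of b2 at days 1, 3 and 5. The b1 cells of day 5 had it in 3 of 5 and those of day 7 in 2 of 2.

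In cells that had Pou5f1, the level also differed between days. At day 1 it ran from 1.03 to 84.9 TPM with a median of 5.87 TPM, so that most of these cells were near the detection limit. At day 3 in b2 it ran from 1.09 to 251 TPM (median 36.1 TPM), and at day 4 from 1.21 to 268 TPM (median 33.8 TPM). At day 5 in b2 it ran from 1.0 to 449 TPM (median 99.9 TPM), and at day 7 from 2.79 to 324 TPM (median 92.3 TPM). The quartiles of days 5 (18.6 to 154 TPM) and 7 (55.5 to 204 TPM) overlapped widely, and those of days 3 and 4 did too. Cells with at least 100 TPM numbered 0 of 58 at day 1, 4 of 58 at day 3 and 7 of 59 at day 4, and 25 of 79 at day 5 and 23 of 65 at day 7 in b2. The 3 b1 cells of day 5 had 100 to 184 TPM and the 2 of day 7 had 12.9 and 123 TPM, inside the b2 range.

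**Figure D1:**
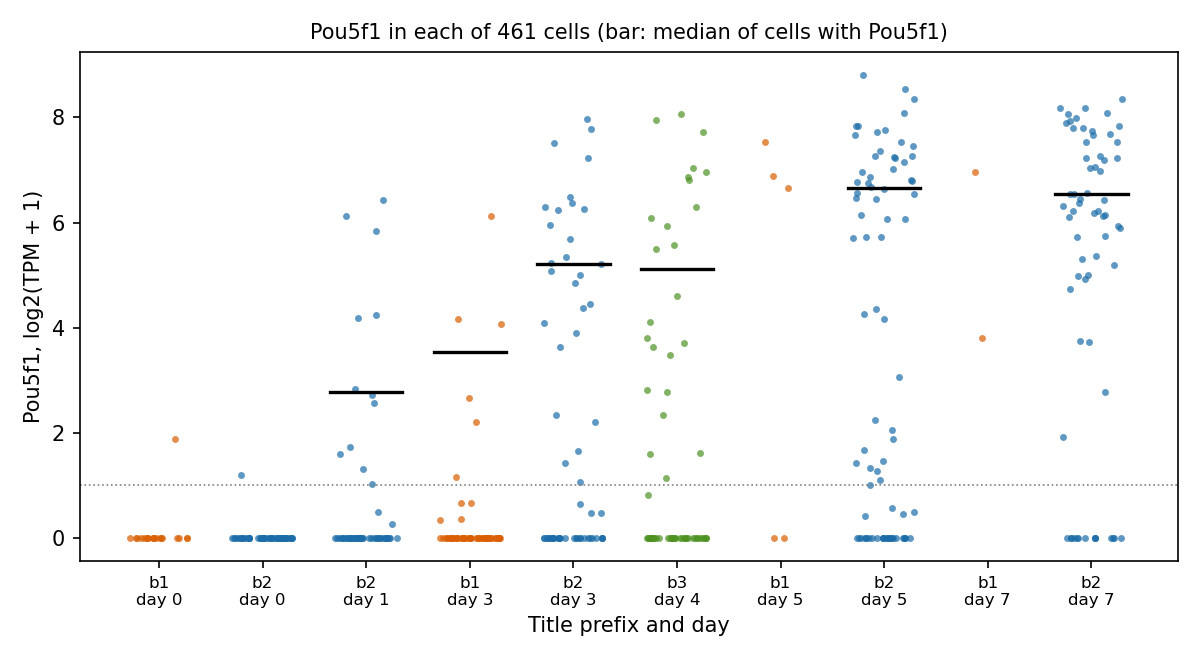
Pou5f1 as log2(TPM + 1) (vertical axis) in each of 461 cells, by title prefix and day (horizontal axis; orange b1, blue b2, green b3). Black bars are medians of cells at 1 TPM or more (dotted line) in sets with at least 5 such cells, and the b2 bars stand at 5.87 TPM at day 1 and 92.3 TPM at day 7.

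The mean over all cells of a set can be split into the share of cells with the gene and their mean level. From day 1 to day 3 in b2 the mean became 6.0-fold higher, made of a 2.25-fold larger share and a 2.67-fold higher level. From day 3 to day 5 the ratio was 2.54, of which the share gave 1.36-fold and the level 1.87-fold. From day 5 to day 7 the ratio was 1.38, with 1.24-fold from the share and 1.115-fold from the level, while the median level of the cells with the gene was 0.924 of that at day 5. These factors hold for the limit of 1 TPM. At a limit of 10 TPM the share went from 5 of 58 cells at day 1 to 22 of 58 at day 3. Single cells weighed heavily early: 1 cell held 40.6% of all Pou5f1 counts at day 1, 17.8% at day 3 and 31.9% at day 4, against 8.70% at day 5 and 6.77% at day 7 (b2 except day 4).

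The b1 and b2 sets of day 3 differed more than most days did. In b1, Pou5f1 was found in 6 of 61 cells (9.84%, 3.70 to 20.2%), against 46.6% in b2, and the intervals did not overlap. One of the 6 cells had under 2 TPM, and the other cells had 3.59, 5.33, 15.8, 16.9 and 68.6 TPM. Summed over the set, b2 had 24.5 CPM of Pou5f1 (CPM, counts per mega-count of the library, here without TMM scaling) and b1 0.592 CPM, a ratio of 41.4 (exact binomial 95% interval 34.3 to 50.5). The b1 cells were the deeper of the sets, with a median of 3.10 M counts against 1.96 M. Other genes of the network went both ways. By mean TPM, Nanog (652 in b1 and 302 in b2), Esrrb (1762 and 922), Sall4 (272 and 186) and Tbx3 (32.3 and 10.1) were higher in b1. The first 3 of these are in the published cocktail. Sox2, Tdh and Zfp42 were lower in b1. With TMM scaling, as in all later CPM values, Sox2 had 19.3 CPM in b1 and 56.5 in b2, Tdh, the threonine dehydrogenase of embryonic stem cells, 93.9 and 244, and Zfp42 (Rex1) 0.0946 and 18.5. The summed fibroblast markers had a median of 474 TPM in b1 and 855 TPM in b2, a sum to which Vim added most (mean 326 and 825 TPM). Single markers differed in both directions. Postn was found in 72.1% of b1 and 20.7% of b2 cells, Pdgfrb in 50.8% and 27.6%, and the contractile genes Tagln and Myl9 in 31.2% and 32.8% of b1 against 8.62% and 6.90% of b2 cells. Twist1 was found in 55.7% of b1 and 74.1% of b2 cells, and Thy1 in 11.5% and 29.3%. Their part in the Pou5f1 difference was not tested. With 1 set of each prefix the difference has no test, and what the prefix stands for cannot be told from the labels.

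**Figure D2:**
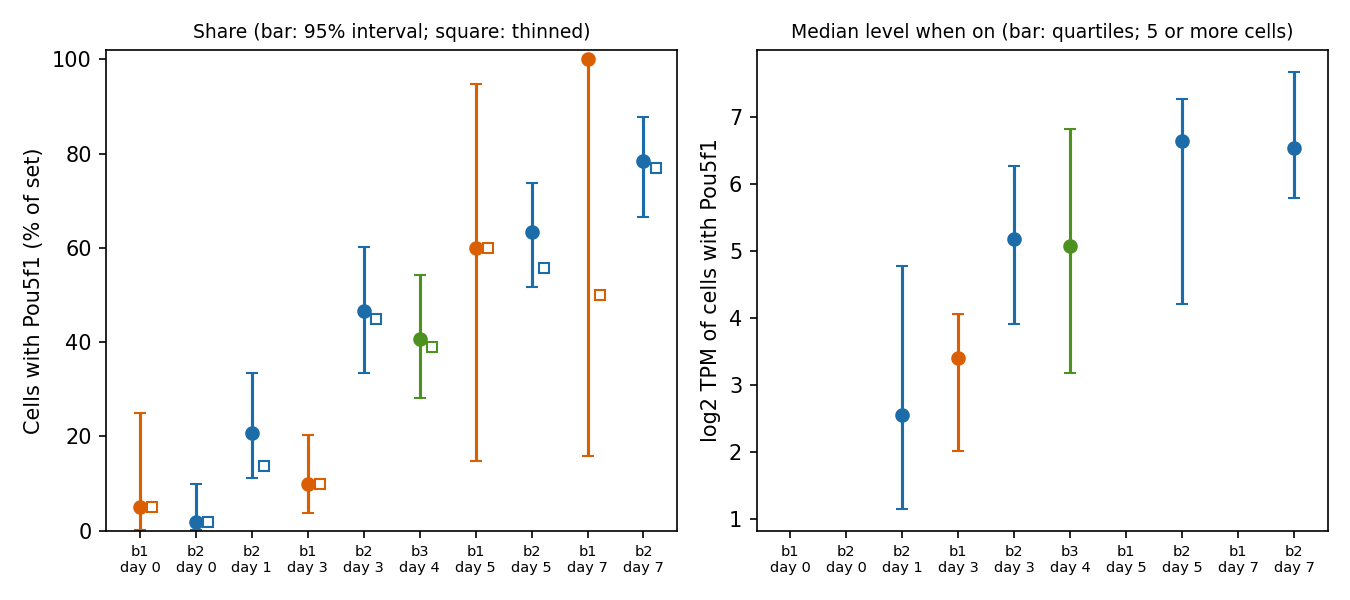
Left, percentage of cells with Pou5f1 at 1 TPM or more in each set, with exact 95% intervals (bars) and the share after thinning every cell to 300000 counts (squares). Right, log2 of the median TPM of cells with Pou5f1 with quartiles (bars), for sets with at least 5 such cells. Shares reach 78.5% in b2 at day 7, and b1 at day 3 stands at 9.84%.

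The order of the 8 large sets by share was the same at equal depth. Thinned to 300000 counts per cell, the share with at least 1 count was 13.8% at day 1, 9.84% (b1) and 44.8% (b2) at day 3, 38.98% at day 4, 55.7% at day 5 and 76.9% at day 7. Within sets, the Spearman correlation of Pou5f1 with the counts of a cell was between 0.07 and 0.19. Cells of day 4 were the shallowest, with a median of 0.983 M counts, and those of all days ranged from 0.319 to 7.00 M with a median of 2.50 M.

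Day contrasts were tested on counts summed over each set, since cells of a set are not replicates. The 8 sets with at least 10 cells entered 1 edgeR fit of 22378 genes, and days 0 and 3 alone had 2 sets each, so that the p-values measure only the spread between these sets, which may be technical. Pou5f1 had 0.0539 (b1) and 0.0132 CPM (b2) at day 0, 4.23 CPM at day 1, 0.525 (b1) and 23.4 CPM (b2) at day 3, 25.99 CPM at day 4, 62.8 CPM at day 5 and 86.1 CPM at day 7. Neither day 0 set reached any later set. At day 1 it had risen over day 0, with a log2 fold change of 7.21 ± 1.05 (SE; edgeR quasi-likelihood test, Benjamini-Hochberg adjusted p = 9.57e-09), in a contrast where 0.934% of genes were called higher and 0.25% lower. From day 0 to day 7 it rose by 11.55 ± 1.18 (edgeR adjusted p = 5.40e-20; 3.55% of genes called higher and 3.05% lower). Because day 0 had 5 Pou5f1 counts in all, the fitted values depend on the prior count, and the ratio of unscaled CPM is given too. It was 186 for day 1 (exact 95% interval 78.99 to 574) and 4153 for day 7 (1779 to 12790). A replicate block by prefix, which set b1 apart from b2 and b3 together, left fewer residual degrees of freedom. With the prefix as a replicate block, the day 1 call was lost (log2 5.85 ± 2.06, edgeR adjusted p = 0.567) and the day 7 call held (10.20 ± 2.12, edgeR adjusted p = 0.0383). Fitted on all 10 sums, the day 1 call was lost too (edgeR adjusted p = 0.464).

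No step after day 1 passed the test for Pou5f1. The fit calls few moderate changes: in simulated data it called 4% of 4-fold and 27.2% of 8-fold changes for day 7 against day 5. For day 5 against day 3 these were 15.2% and 58.4%, so a missing call does not show an unchanged level. The log2 fold change was 1.496 ± 0.93 for day 3 against day 1 (edgeR adjusted p = 1; 0.246% of genes called higher, 0.156% lower). It was 1.12 ± 0.84 for day 4 against day 3 (edgeR adjusted p = 1; 0.13% higher, 0.0894% lower) and 0.45 ± 1.00 for day 7 against day 5 (edgeR adjusted p = 1; 0.103% higher, 0.451% lower). For day 5 against day 3 it was 2.40 ± 0.83 (unadjusted edgeR p = 0.00411, adjusted p = 0.150; 0.643% higher, 1.07% lower). These values moved with the sets of day 3, and the day 5 call also with those of day 0 (edgeR adjusted p = 0.0210 without b1 and 0.0207 without b2 of day 0). Without the b2 set, day 3 lay below day 1 (-3.01 ± 1.203, edgeR adjusted p = 1), and day 5 against day 3 became 6.90 ± 1.44 (edgeR adjusted p = 0.000441) and day 4 against day 3 5.63 ± 1.36 (edgeR adjusted p = 0.0219). Without the b1 set they were 1.43 and 0.16.

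Sox2, the DNA-binding partner of Oct4, was found in more cells than Pou5f1 up to day 5. It was present in 95% of cells at day 1, and it rose from 0.180 (b1) and 0.397 CPM (b2) at day 0 to 28.6 CPM at day 1 (log2 6.59 ± 0.89, edgeR adjusted p = 2.68e-10), a call that was lost with the prefix as a replicate block. All 12 Pou5f1-positive cells of day 1 had Sox2, as had 27 of 27 in b2 at day 3 and 24 of 24 at day 4. In b1 at day 3 it was 5 of 6, and in b2 it was 42 of 50 at day 5 and 47 of 51 at day 7. Many cells had Sox2 without Pou5f1: 43 of 46 at day 1, 27 of 31 at day 3 (b2), 28 of 35 at day 4 and 22 of 29 at day 5. At day 7 this was 3 of 14 cells, so that there the cells lacking Pou5f1 mostly lacked Sox2 also. The Spearman correlation of both genes over cells was 0.30, 0.24, 0.27 and 0.26 at days 1, 3 (b2), 4 and 5, and 0.57 at day 7. Correlations are given as descriptions over cells that share a set and its depth, over 58, 58, 59, 79 and 65 cells.

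**Figure D3:**
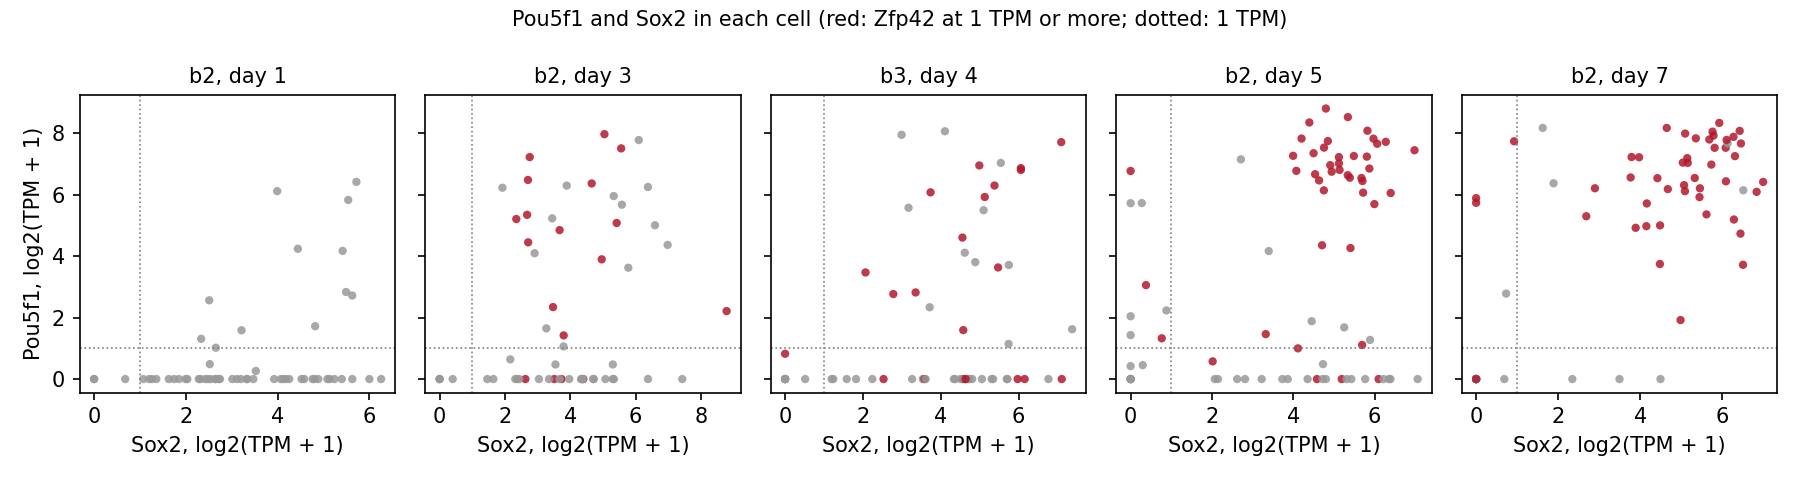
Pou5f1 (vertical axis) against Sox2 (horizontal axis), both as log2(TPM + 1), in each cell of the 5 sets with at least 10 Pou5f1-positive cells. Red cells have Zfp42 at 1 TPM or more and dotted lines mark 1 TPM. At day 1 the 12 Pou5f1-positive cells all have Sox2 and none has Zfp42.

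The number of target genes in a cell differed with its Pou5f1 level on later days and hardly at day 1. A list of 19 genes that Oct4 is known to bind or to need in pluripotent cells was counted in each cell at 1 TPM or more. At day 1, cells with at least 10 TPM of Pou5f1 (5 cells) had a median of 4 targets, and cells under 1 TPM (46 cells) also had 4. At day 3 in b2 the medians were 6 (22 cells, range 3 to 17) and 4 (31 cells, 2 to 8). At day 4 they were 13 (18 cells, 4 to 19) and 7 (35 cells, 3 to 14). At day 5 they were 16 (39 cells, 3 to 19) and 5 (29 cells, 1 to 13), and at day 7 17 (49 cells, 2 to 19) and 5.5 (14 cells, 1 to 9). The 11 cells of day 5 with Pou5f1 between 1 and 10 TPM had a median of 5 targets (3 to 10), as the cells without it did. These ranges of Pou5f1 were chosen after its values were seen and carry no test.

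**Figure D4:**
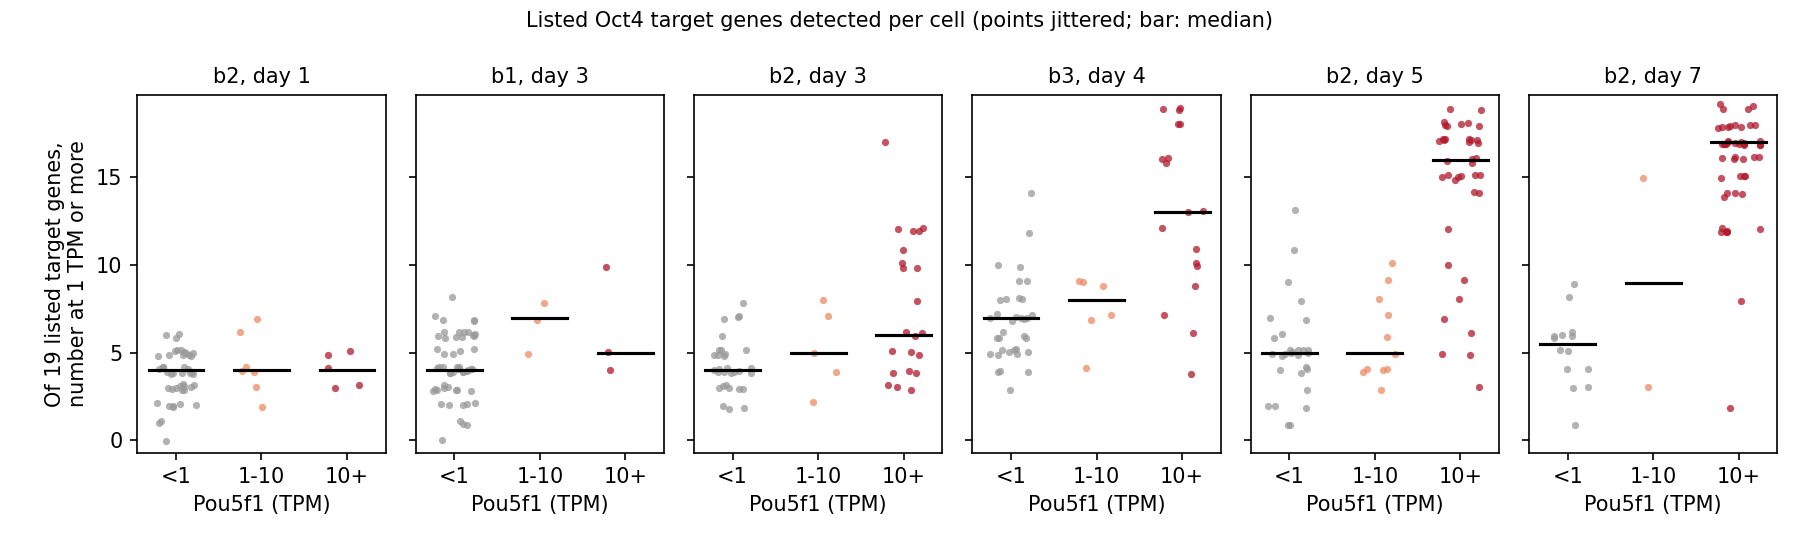
Number of the 19 listed Oct4 target genes at 1 TPM or more (vertical axis) in each cell, by the Pou5f1 level of the cell (under 1, from 1 to under 10, and at least 10 TPM) and by set. Bars are medians. In cells with at least 10 TPM the median is 4 at day 1 and 17 at day 7.

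Summed over sets, many targets were called higher between days up to day 5 and none from day 5 to day 7. Of 19 tested, 6 rose from day 0 to day 1, 12 from day 1 to day 3, 6 from day 3 to day 4, 13 from day 3 to day 5 and 0 from day 5 to day 7 (2 at an unadjusted p under 0.05), and all 19 rose from day 0 to day 7 (edgeR, adjusted p under 0.05). The edgeR test called none lower in these contrasts, against 3 lower at an unadjusted p under 0.05 from day 0 to day 1 and 1 from day 3 to day 5. Of all genes, 0.934%, 0.246%, 0.13%, 0.643%, 0.103% and 3.55% were called higher, in the order of those contrasts. This list, like the others here, was chosen with earlier results of these data known. Its counts beside those shares are therefore a description and no test. The 6 targets at 0 counts on day 0 passed the filter on low counts only through later days. The median log2 fold change of the list from day 0 to day 7 was 12.91 (12.53 with the 6 genes at 0 counts on day 0 set to 3 counts over that day) against 0.0 for all genes. From day 1 to day 3 it was 6.22 (5.26 with 4 such genes at their bound) against 0.16, and from day 3 to day 5 2.49 against -0.14. From day 5 to day 7 it was 0.72 against 0.0, in a contrast where 0.4% of simulated 2-fold changes were called. Without the b1 set of day 3, the counts for day 4 and day 5 against day 3 were 1 and 5. With the replicate block, the counts were 1 for day 1 against day 0, 2 for day 3 against day 1, 3 for day 5 against day 3 and 14 for day 7 against day 0.

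The targets came up at different times. Tdh had 0.0539 and 0 CPM in the day 0 sets, 70.9 CPM at day 1 and 582 CPM at day 7. Utf1, a chromatin-bound factor with an Oct4-Sox2 site in its enhancer, had 0 and 0.00662 CPM at day 0, 1.23 CPM at day 1, 26.9 CPM in b2 at day 3, 160 CPM at day 5 and 68.1 CPM at day 7. Dppa5a, an RNA-binding protein of pluripotent cells, had 0.158 CPM at day 1, 0.671 and 40.5 CPM in b1 and b2 at day 3, and 2563 CPM at day 7. Fgf4, the signalling ligand whose enhancer is a textbook Oct4-Sox2 element, was at 0 CPM at day 1 and reached 1.51 CPM (b2, day 3), 24.4 CPM (day 5) and 73.5 CPM (day 7). Fgf4 was found in 0 of 29 cells of day 5 and 0 of 14 of day 7 with under 1 TPM of Pou5f1, and in 19 of 39 and 32 of 49 with at least 10 TPM.

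Across cells, correlations with the targets were low at day 1 and highest, by the list median, at day 5. Among members present in at least 20% of the cells of a set, 0 of 5 had a Spearman rho of at least 0.3 with Pou5f1 at day 1, 5 of 9 in b2 at day 3, 13 of 17 at day 4, 15 of 18 at day 5 and 14 of 19 at day 7. The shares for all genes present in that many cells were 1.47%, 5.82%, 5.03%, 6.87% and 6.22%. The list medians were 0.03, 0.31, 0.41, 0.65 and 0.50. Tdh went from 0.22 at day 1 to 0.57, 0.35, 0.80 and 0.62, L1td1, which encodes an RNA-binding protein of LINE-1 origin, from 0.44 at day 3 (b2) to 0.81 at day 5, and Utf1 had 0.50, 0.71 and 0.62 at days 4, 5 and 7.

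Lin28a, the RNA-binding blocker of let-7 maturation, stood apart from the other targets. It was found in 53%, 63% and 71% of cells at days 4, 5 and 7, but its rho with Pou5f1 was 0.39, 0.12 and -0.06. At day 7 it was present in 11 of the 14 cells under 1 TPM of Pou5f1, with a median of 83.4 TPM, and in 34 of the 49 cells with at least 10 TPM, with a median of 21.8 TPM. The median fibroblast marker sum of those groups was 797 and 242 TPM, and its part in the Lin28a values was not tested.

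Other transcription factors of the network were followed in the same way. Of 17 listed core factors, 2 rose from day 0 to day 1 (Sox2 and Nr0b1), 2 from day 1 to day 3 (Tfcp2l1 and Zfp42), and 9 rose and 1 (Esrrb) fell from day 0 to day 7, with a median log2 fold change of 4.33 against 0.0 for all genes. Of all genes, 0.934%, 0.246% and 3.55% were called higher in these contrasts, and 3.05% lower from day 0 to day 7. From day 3 to day 5, 2 rose (Tfcp2l1 and Zfp42) and 2 fell (Nanog and Esrrb), all of which were lost with the replicate block and without the b1 set of day 3 (0 higher and 0 lower in each; 4 higher and 2 lower, and 3 higher and 1 lower, at an unadjusted edgeR p under 0.05). Of all genes, 0.643% were called higher and 1.07% lower from day 3 to day 5. None of the core factors passed from day 3 to day 4 or day 5 to day 7 (1 higher at an unadjusted edgeR p under 0.05 in each). With the replicate block 6 rose and 1 fell from day 0 to day 7, and none rose from day 0 to day 1 (4 at an unadjusted edgeR p under 0.05). Tfcp2l1, a factor of the naive state, had 4.35 CPM at day 1, 150 CPM at day 3 (b2), 310 CPM at day 5 and 738 CPM at day 7, and its rho with Pou5f1 was 0.40, 0.65, 0.79 and 0.65 at days 3 (b2), 4, 5 and 7. Zfp42, a widely used marker of the embryonic stem cell state, was in 0 of 58 cells at day 1, and its rho was 0.44, 0.42, 0.78 and 0.54.

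Nanog and Esrrb, both in the published cocktail, were high from day 0, at 474 and 675 CPM (Nanog) and 1304 and 954 CPM (Esrrb), where Pou5f1 was nearly absent. Gene counts do not separate vector from native transcripts. At days 1, 3 (b2) and 4 the rho of Nanog with Pou5f1 was -0.12, 0.06 and 0.02, and at days 5 and 7 it was 0.49 and 0.50. Esrrb had -0.10, -0.16 and -0.06, then 0.17 and 0.46. Sall4, the third pluripotency factor of the cocktail, correlated earlier, with 0.04, 0.28, 0.59, 0.60 and 0.61. Jdp2, an AP-1 repressor of the cocktail, had -0.12, -0.09, -0.13, -0.18 and -0.05.

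**Figure D5:**
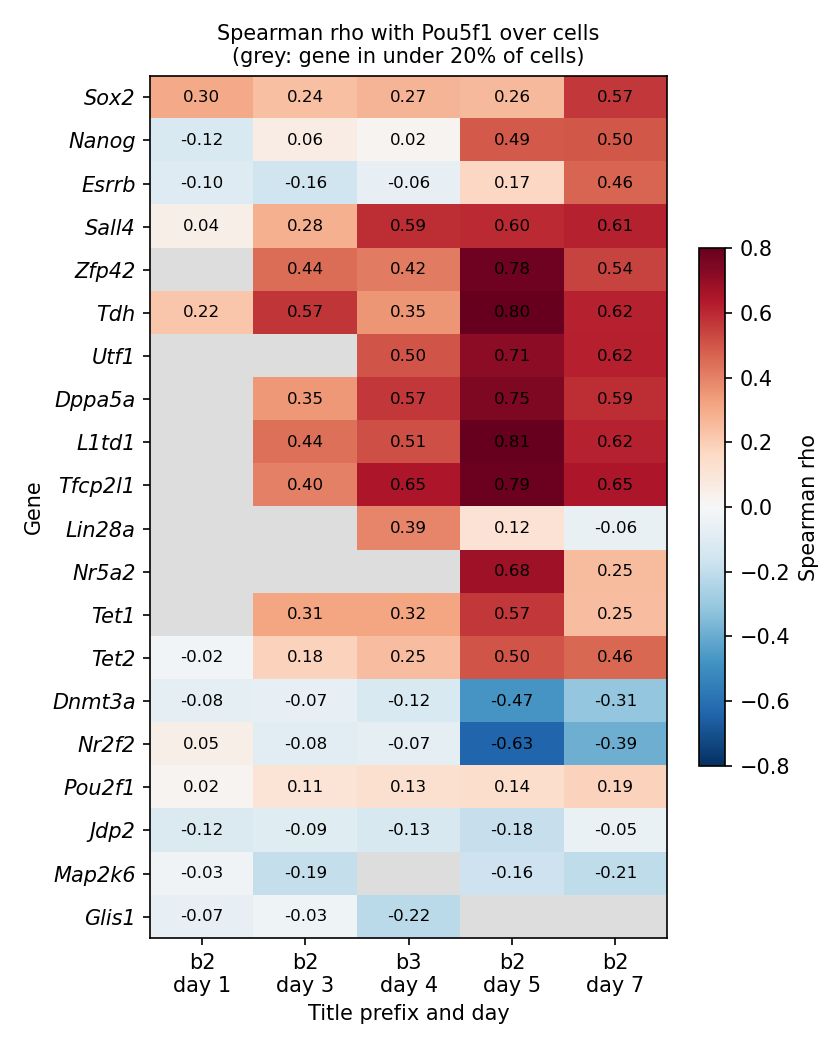
Spearman rho with Pou5f1 over the cells of each set (columns, 58 to 79 cells) for 20 listed genes (rows). Red is positive, blue negative, and grey marks a gene present in under 20% of the cells. Nanog goes from -0.12 at day 1 to 0.50 at day 7, and Nr2f2 reaches -0.63 at day 5.

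Among genes that silence the locus, the orphan receptor Nr2f2 (COUP-TFII), known to bind a hormone response element of this promoter, had a rho of 0.05, -0.08 and -0.07 at days 1, 3 (b2) and 4, then -0.63 at day 5 and -0.39 at day 7. At day 5 it was found in 27 of 29 cells under 1 TPM of Pou5f1 (median 42.4 TPM) and 8 of 39 with at least 10 TPM (median 0.0 TPM). Its sum over sets did not pass the test from day 3 to day 5 (92.2 and 122 CPM at day 3, 56.6 CPM at day 5, edgeR adjusted p = 0.771). The DNA methyltransferase Dnmt3a had -0.47 and -0.31 at days 5 and 7, while its relative Dnmt3b, which rose from day 0 to day 7 (log2 2.55 ± 0.62, edgeR adjusted p = 0.00128), had 0.36 and 0.38. Nr6a1 (GCNF), the germ cell nuclear factor that represses Pou5f1 in differentiating cells, was present in at least 95% of cells in these sets, with rho between -0.29 and 0.24. In all, 2 of 11 listed repressors rose from day 0 to day 7 (Nr6a1 and Dnmt3b), 0 fell, and the list median was 1.09 against 0.0 for all genes. Of all genes, 3.55% were called higher and 3.05% lower in that contrast.

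Among activators of the locus, Tet1, a DNA demethylation enzyme, had 1.40 CPM at day 1, 83.8 CPM at day 3 (b2) and 388 CPM at day 7, and its rho with Pou5f1 was 0.31, 0.32, 0.57 and 0.25 at days 3 (b2), 4, 5 and 7. Tet2 had 0.50 and 0.46 at days 5 and 7. Tet3, the third enzyme of the family, had the lowest rho of all eligible genes at day 5, -0.73, and was found in 25 of 29 cells under 1 TPM of Pou5f1 and 6 of 39 with at least 10 TPM. Nr5a2 (LRH-1), a receptor that activates the promoter, was found in 34% and 38% of cells at days 5 and 7 with rho 0.68 and 0.25. The H3K9 demethylase Kdm3a had 0.50 and 0.39, and the retinoic acid receptor Rara -0.30 at day 5. In all, 4 of 11 listed activators rose from day 0 to day 7 (Tet1, Tet2, Kdm3a and Wdr5) and 0 fell, where 3.55% of all genes were called higher and 3.05% lower. The list median was 1.72 against 0.0 for all genes.

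By likeness, the 10 genes with the highest lowest rho over the late sets (b2 at day 3, b3 at day 4, b2 at days 5 and 7), out of 8068 present in at least 20% of cells of each, were Platr10, Amt, Rex2, Adarb2, Gdf3, Eif2s2, Mybl2, Zfp985, L1td1 and Nfatc2ip. Platr10, a long noncoding RNA of pluripotent cells, had 0.48, 0.53, 0.81 and 0.63. At day 7 it was found in 48 of 51 Pou5f1-positive cells and in 0 of 14 others, the highest co-occurrence among the 8280 genes compared there (phi 0.88). Amt, of the glycine cleavage system, had 0.51, 0.47, 0.64 and 0.56, and Gdf3, a TGF-beta family ligand, 0.46, 0.46, 0.72 and 0.53. The median over all 8068 genes of the lowest rho was -0.14.

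Restricted to cells that have Pou5f1, so that presence against absence no longer counts, 2 of the 10 kept a rho of at least 0.3 in all 4 sets, namely Amt (0.34 to 0.51) and L1td1 (0.31 to 0.67). Gdf3 had 0.52, 0.58 and 0.62 up to day 5 and 0.05 at day 7. Rex2 had 0.62, 0.18, 0.59 and 0.08. At day 7 all 10 lay between 0.05 and 0.34.

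The genes lowest over all 4 sets were Elovl1, a fatty acid elongase (-0.39 to -0.46), Malat1, a nuclear noncoding RNA, Gnas, Ssr3 and Slc5a3. Within single days the lowest included Zeb2, a repressor of epithelial genes, at -0.53 (b2, day 3), Ephb2 at -0.55 (day 4), Sox4 at -0.70 (day 5) and Efna5 and Sema3c, both guidance ligands, at -0.65 and -0.63 (day 7).

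The leading genes of single days differed. At day 1 they were Kdm6a, Sh3bgrl2, Rfesd, Rpn1 and Nsmf (0.44 to 0.46), and 135 of 9657 eligible genes reached 0.3. At day 3 in b2 the first was Nanos3, a germ cell RNA-binding protein, at 0.64, found in 13 of 27 cells with Pou5f1 and 0 of 31 without. Nanos3 also led co-occurrence at day 1, tied with Prr16, each in 5 of 12 and 1 of 46 cells. The rho of Nanos3 was 0.09 at day 4 and 0.26 and 0.25 at days 5 and 7. At day 4 the first were Porcn, the Wnt acyltransferase, at 0.68, Tfcp2l1, and Pcgf6, a Polycomb subunit, at 0.64. At day 5 they were Platr10, L1td1, Tdh, Tfcp2l1 and Zfp42, from 0.81 to 0.78, and at day 7 Tfcp2l1, Platr10, Pcsk6, Fbxo15 and Utf1, from 0.65 to 0.62.

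Markers of other cell types were followed beside these values. The score of the 12 fibroblast markers, their mean log2(TPM + 1), had a rho with Pou5f1 of -0.24 at day 1, -0.53 (b2, day 3), -0.22, -0.52 and -0.26, that of 9 epithelial markers -0.09, 0.32, 0.47, 0.50 and 0.14. At day 5, cells under 1 TPM of Pou5f1 had a median fibroblast sum of 573 TPM and an epithelial sum of 5.51 TPM, and cells with at least 10 TPM 242 and 176 TPM. Epcam and Cdh1, the adhesion molecules of epithelia and of stem cell colonies, had 0.61 and 0.63 at day 5 and 0.29 and 0.23 at day 7. The keratins Krt8 and Krt18 of the same list went otherwise, with 0.02 and -0.27 at day 5 and -0.39 and -0.40 at day 7. From day 0 to day 7, 10 of 12 fibroblast and 5 of 5 contractile markers fell, and 5 of 9 epithelial, 3 of 6 germ cell, 2 of 6 endothelial, 1 of 3 tested blood and 1 of 4 neural markers rose (edgeR, adjusted p under 0.05), where 3.55% of all genes were called higher and 3.05% lower. The 2 tested 2-cell-stage markers were called higher too, but few cells of day 7 carried them: Zscan4c was in 1 of 65 cells, at 2596 TPM, and Zscan4f in 2, at most 1160 TPM. Of 13 germ layer and extraembryonic markers 1 rose and 1 fell, shares not far from those of all genes, and of the 7 cocktail genes 4 fell. At day 5 the rho of Pou5f1 with the list scores was -0.38 for contractile, 0.42 for blood, 0.36 for germ cell, 0.33 for neural, 0.27 for endothelial, -0.28 for germ layer and extraembryonic markers and 0.26 for the cocktail genes. The part of these cell types in the Pou5f1 values was not tested. Of the blood markers, Laptm5 had 0.54 and 0.35 at days 5 and 7, while the leukocyte-defining Ptprc and Tyrobp had no cell at 1 TPM in these sets.

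Of the 14 other POU genes, Pou2f1 (Oct1), the ubiquitous octamer-binding member, was the most widely found, in 48% to 89% of cells of the 5 sets, with rho from 0.02 to 0.19. Pou4f1 was in 16% to 29%, and the others in at most 19%. From day 0 to day 7, 1 of the 14 passed the test (Pou3f2, higher), against 3.55% of all genes called higher. Pou3f2 was found in 5 of 65 cells of day 7, with at most 118.6 TPM and a mean of 2.52 TPM. The nearest genes on chromosome 17 did not follow Pou5f1 closely. Tcf19, next to it, had 0.37, 0.14, -0.13, 0.05 and 0.24, and Cchcr1 between -0.03 and 0.13. Gm19553, an antisense gene within the Pou5f1 gene body, was at 1 TPM or more in 1 cell of b1 at day 3, 1 of day 4, 4 of day 5 and 2 of day 7 (b2), with at most 17.1 TPM, and the counting is not stated to use strand.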

How the data were processed

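Single-cell transcriptomes of 461 cells were deposited as 2 tables. Per the submitters' processing notes, bcl2fastq and RSEM 1.2.22 were used. Aligner and genome build: not given in the sources used here. The authors deposited expected counts, RSEM's estimates of reads per gene, of which 9.11% are not whole. The authors also deposited TPM, scaled within each cell. Of 31673 gene identifiers 31426 had a symbol in the reference. No cell was removed and no doublet caller was run.

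Detection was a TPM of 1 or more. For each prefix and day, expected counts were added up and rounded. The 8 sums of 10 or more cells were fitted in edgeR 4.0.16 (R 4.3.3) with TMM factors, filterByExpr by day and the quasi-likelihood test on day, two-sided, without a block. Called genes had a Benjamini-Hochberg adjusted p under 0.05 over 22378 genes. With 2 residual degrees of freedom and infinite prior degrees of freedom, p rests on the spread shared over genes. Days with 1 set were assumed to vary as days 0 and 3. The fit and the correlation code were tested on simulated data. Of simulated 2-fold and 16-fold changes the fit called 0.4% and 62.4% for day 7 against day 5, and 0.4% and 82% for day 5 against day 3. No cell column was a copy of another (0 identical).

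Genes were named by Spearman rho (scipy 1.17.1) within sets with 10 or more Pou5f1-positive cells: per set the 5 highest and 3 lowest among genes in at least 20% of cells and the 5 highest phi of detection, of which some are left out for length, and over 4 late sets the 10 highest and 5 lowest, without predicted genes, pseudogenes, ribosomal proteins and histones. The gene, the lists and the rules were chosen with earlier results of these data known. Lists of core factors, Oct4 targets, locus regulators, POU genes and cell markers overlap in part. Alternatives covered DESeq2 1.42.0, limma 3.58.1, filters, sets, thresholds, thinning and correlation measures.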

Additional observations from a re-analysis of the deposited data

How the results depend on the processing

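The rise of Pou5f1 from day 0 to day 7 kept its call under every setting but limma on log2(mean TPM + 1) (log2 6.51, adjusted p = 0.185), and the rise from day 0 to day 1 lost it on all 10 sums (7.12), with the replicate block (5.85) and with limma (2.39). Fits that left out 1 set gave 6.27 to 8.24 for day 1 against day 0, -3.01 to 2.46 for day 3 against day 1, 0.16 to 5.63 for day 4 against day 3 and 1.43 to 6.90 for day 5 against day 3, reversed or called without the b2 set of day 3. Day 5 against day 3 was also called without either day 0 set (b1 adjusted p = 0.0210, b2 adjusted p = 0.0207). The highest cell per set removed, day 0 had no Pou5f1 counts.

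Counts of called genes, in the order day 1 against 0, 3 against 1, 4 against 3, 5 against 3, 7 against 5 and 7 against 0, were 265, 90, 49, 383, 124 and 1477. They were 745, 261, 150, 1033, 497 and 2979 with DESeq2. With limma they were 0 in the first 5 (1316, 1171, 918, 1990 and 1350 at an unadjusted limma p under 0.05) and 582 in the last. On all 10 sums they were 1, 0 (363 unadjusted), 2, 12, 18 and 352. With the prefix as a replicate block they were 6, 8, 23, 16 and 432, and day 4 against day 3 was not tested there. Leaving out 1 set gave 145 to 440, 30 to 166, 15 to 111, 161 to 690, 69 to 221 and 918 to 1678. The causes were not tested. The blocked fit rests on the pairing of b1 and b2 at days 0 and 3, with b3 counted with b2.

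Shares moved beyond their interval at 10 TPM to 0% (both day 0 sets), 8.62% (day 1) and 49.4% (day 5, b2), and at 10 counts to 0% (day 0), 27.1% (day 4) and 49.4% (day 5). The median level of day 1 moved to 56.1 TPM at that TPM limit. Of the 10 genes named over the late sets, 2 kept rho of 0.3 or more among cells with Pou5f1. In those cells the rho of Elovl1 in b2 at day 3 was 0.0737 (all cells -0.39), and 35 of 60 values of the 15 named genes stayed within 0.2 of the main value, against 60 of 60 after thinning and 58 of 60 with Pearson r at either pseudocount.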

Other observations

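Among 143 cells with at least 10 Pou5f1 counts, the ratio of Pou5f1 TPM to Pou5f1 counts per mega-count, scaled to the ratio of 847 widely found genes in the same cell, lay more than 1.5-fold above its median in 8 cells. The highest ratio was 2.499 times the median and the lowest 0.945 times. The ratio follows the transcript length that the quantification assigned.

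Cells that lacked Pou5f1 at 1 TPM but had both Zfp42 and Dppa5a numbered 0 of 46 at day 1, 2 of 31 in b2 at day 3, 3 of 35 at day 4, 4 of 29 at day 5 and 1 of 14 at day 7. Pou5f1 together with Sox2, Nanog, Zfp42 and Dppa5a was found in 0 of 12 Pou5f1-positive cells at day 1, 8 of 27 in b2 at day 3, 11 of 24 at day 4, 33 of 50 at day 5 and 43 of 51 at day 7. No cell of b1 at day 3 had this combination among 6 with Pou5f1.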
